A study of Mus musculus with 33 samples.

Results

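Places where many measured regions lie close together on a chromosome were described for 3 heart transcription factors, Gata4, Mef2c and Tbx5, in mouse fibroblasts undergoing cardiac reprogramming. The regions of the count table were sorted along each chromosome of the mm9 build and joined into a chain wherever the next region began within 12.5 kb of the end of the one before. Chains of 4 or more regions on the autosomes were kept. They held 3615 regions, called clustered regions here, of 30815 in the table, or of 30199 on the autosomes. There were 766 such chains among 21033 autosomal chains. They are set against single regions, the 15208 autosomal regions with no other region within 12.5 kb. The choice used the positions of the regions and no count, but how the regions themselves were chosen is unstated, so their positions may depend on ChIP signal.

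Gata4, a zinc-finger factor, recognises GATA motifs, while Mef2c belongs to the MADS-box and Tbx5 to the T-box family. Expressed together in fibroblasts they start a program of cardiac gene expression, and in the developing heart they act at many of the same enhancers. Enhancers often lie in groups around genes that define a cell type, where several transcription factors bind within a short stretch of DNA. Chromatin immunoprecipitation followed by sequencing (ChIP-seq) measures how often DNA of a place is recovered with an antibody to a factor, and input chromatin, which saw no antibody, gives the background.

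All samples came from 1 immortalised line of neonatal cardiac fibroblasts (strain Cd-1, genotype alpha-MHC-GFP, a reporter driven by the alpha myosin heavy chain promoter) that expressed large T antigen. Every sample was kept with sb431542, an inhibitor of TGF-beta signalling, and xav939, an inhibitor of Wnt signalling, and was taken unsorted at day 2. Cells with retroviruses for Gata4, Mef2c and Tbx5, called three-factor cells, gave 6 Gata4, 4 Mef2c and 4 Tbx5 ChIP libraries and 6 inputs. Cells with the retrovirus of 1 factor, called single-factor cells, gave 4 Gata4, 3 Mef2c and 3 Tbx5 ChIP libraries and 1 input per factor. The labels call the replicates biological; all share the line and the harvest day, so p-values measure the spread between these samples. The antibodies to Gata4 and Tbx5 came from Santa Cruz and that to Mef2c from Cell Signal Tech. Neither the share of infected cells nor the level of each factor is given in the sources used here, and a place bound in more cells and a place bound more often per cell cannot be told apart. No gene was assigned to a chain, because the gene annotation at hand is of another build.

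Counts over the table ran from 352015 to 2377616 in ChIP libraries of three-factor cells, from 222761 to 968131 in those of single-factor cells and from 97474 to 301678 in inputs. Between libraries 1 and 6 of Gata4 in three-factor cells a chi-square test over regions found no difference beyond sampling noise (p = 0.0785), and they were counted as 1 sample. The same test and sum were applied to inputs 1 and 3 and to inputs 2, 4 and 5 of these cells, which left 5 Gata4 samples and 6 inputs in all. Within each antibody, libraries 1, 3 and 6 of three-factor cells had more counts in the 5 Y chromosome regions than libraries 2, 4 and 5. For Mef2c and Tbx5, three-factor libraries 2, 4 and 5 had 0 to 1.745 CPM there. Library 3 had 11.75 CPM for Mef2c and 11.65 CPM for Tbx5. Single-factor libraries had 5.31 to 8.71 CPM for Mef2c and 11.95 to 18.83 CPM for Tbx5. These levels rest on 14 counts or fewer per library. The split thus largely coincided with the cell contexts for these factors, and its part in their context differences was not tested. Single-factor Gata4 library 4 stood apart from the other 3 of its group, for example with 139 CPM, against 55.8 to 68.2 CPM, at chr2:113876655-113897990, and the counts of Gata4 calls are also given without it. Levels below are in CPM, each library's counts scaled to the same total over the table, so a level is a share of a library's counts, and log2 fold changes come from edgeR with TMM scaling, which need not equal the ratio of CPM.

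Most chains were short. Of the 766, 470 had 4 regions, 161 had 5, 72 had 6 and 63 had 7 or more, up to 13. The chains spanned 1037 to 52650 bp (median 16650 bp), and the regions covered a median of 8.04% of that span, so a chain was mostly unmeasured DNA between narrow regions. Neighbours in a chain lay a median of 3509 bp apart, and 602 of 2849 gaps (21.1%) were 700 bp or less. Per the labels the chromatin was sheared to fragments of 200 to 700 bp, so such close neighbours can share fragments. Clustered regions were slightly wider than single ones, with a median of 251 bp against 224 bp, and the nearest other region lay a median of 1998 bp away, against 34370 bp for single regions.

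The chains were spread over all 19 autosomes, unevenly. Chromosome 11 had the highest share of its regions clustered, 17.7%, in 74 chains, followed by chromosome 19 with 16.4%. The lowest shares were on chromosome 14, with 7.98%, and on chromosomes 13 and 12, with 8.0% and 8.37%. Input density also differed between chromosomes: chromosome 15, with 14.4% of its regions clustered, had the highest median of the autosomes, 138 CPM per kb, and chromosome 11 had 123.5 CPM per kb.

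In three-factor cells, ChIP of each factor recovered more DNA per kb from clustered than from single regions, and single-factor Tbx5 did so too, whereas single-factor Gata4 and Mef2c were close to even. Tbx5 had the highest ratio: counts per kb in clustered regions were 1.52 to 1.66 times those in single regions in the 4 three-factor Tbx5 samples and 1.45 to 1.47 times in the 3 single-factor ones. For Gata4 the ratio was 1.41, 1.28, 1.23, 1.34 and 1.44 in the 5 three-factor samples and 1.09, 1.05, 1.05 and 1.01 in the 4 single-factor samples. For Mef2c it was 1.19, 1.27, 1.29 and 1.32 in three-factor cells and 1.00, 1.02 and 0.995 in single-factor cells. No three-factor sample overlapped a single-factor sample of the same factor. The inputs lay between 0.940 and 0.975 except the single-factor Tbx5 input, which stood apart at 1.12.

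On the log2 scale this ratio in three-factor cells averaged 0.42 ± 0.096 over the 5 Gata4 samples, 0.34 ± 0.068 over the 4 Mef2c samples and 0.67 ± 0.058 (SD) over the 4 Tbx5 samples, against -0.02 ± 0.091 in the inputs (n = 6). Each exceeded the inputs in a two-sided exact permutation test over samples (p = 0.00433, 0.00952 and 0.00952, each the smallest the design allows, all 0.0318 after Benjamini-Hochberg adjustment over 10 comparisons). Single-factor Tbx5, at 0.55 ± 0.013 (n = 3), also exceeded the inputs (exact p = 0.0238, adjusted p = 0.0476), a call lost by leaving out any 1 sample, since fewer orderings remain, with differences of 0.55 to 0.60. Single-factor Gata4 averaged 0.07 ± 0.045 (n = 4), which did not pass (exact p = 0.124, adjusted p = 0.155). Without the single-factor Tbx5 input its difference from the inputs grew from 0.09 to 0.13 and passed (exact p = 0.0159, adjusted p = 0.0318). Single-factor Mef2c averaged 0.01 ± 0.018 (n = 3) and did not pass (exact p = 0.619).

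Between the cell contexts, the Gata4 ratio was higher in three-factor than in single-factor cells by 0.35 on the log2 scale (exact p = 0.0159, adjusted p = 0.0397). Leaving out any 1 sample kept the difference at 0.32 to 0.38, but with fewer orderings the adjusted exact p was then 0.0571 or 0.0714. For Mef2c the difference was 0.33 and for Tbx5 0.12, and neither passed the adjustment: with 4 against 3 samples the exact test cannot go below p = 0.0571, which both reached (adjusted p = 0.0816). The differences were also compared by permuting contexts within factors. Gata4 exceeded Tbx5 by 0.23 (exact p = 0.124, adjusted p = 0.255) and Mef2c exceeded Tbx5 by 0.21 (exact p = 0.17, adjusted p = 0.255), neither past the threshold. That permutation assumes no difference between contexts for either factor, so it cannot decide whether the 3 differences were unequal. Inputs of three-factor cells averaged -0.06 ± 0.027 and those of single-factor cells 0.02 ± 0.13 (SD, n = 3 each, exact p = 0.6).

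Density was higher in chains of more regions for all 3 factors in three-factor cells and for Tbx5 in single-factor cells. For Tbx5 in three-factor cells it was 98.9 CPM per kb in single regions, 125 in chains of 2, 134 in chains of 3, 151 in chains of 4 and 178 ± 4.0 in chains of 6. Gata4 in the same cells had 106 CPM per kb in single regions and 152 ± 7.2 in chains of 6, and Mef2c had 108 and 148 ± 4.1. The increase was not strictly stepwise: for Gata4 and Mef2c, chains of 5 lay a little under chains of 4, and for all 3 factors chains of 7 or more lay under chains of 6, for Gata4 by less than the SD. Single-factor Tbx5 had 101 CPM per kb in single regions, 142 in chains of 4, 163 ± 2.0 in chains of 6 and 159 in chains of 7 or more. Single-factor Gata4 had 115 CPM per kb in single regions and 118 ± 2.7 in chains of 6, and single-factor Mef2c had 115.5 and 120 ± 1.3. The inputs had 118 ± 2.9 in single regions and 116 ± 7.2 in chains of 6.

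**Figure D1:**
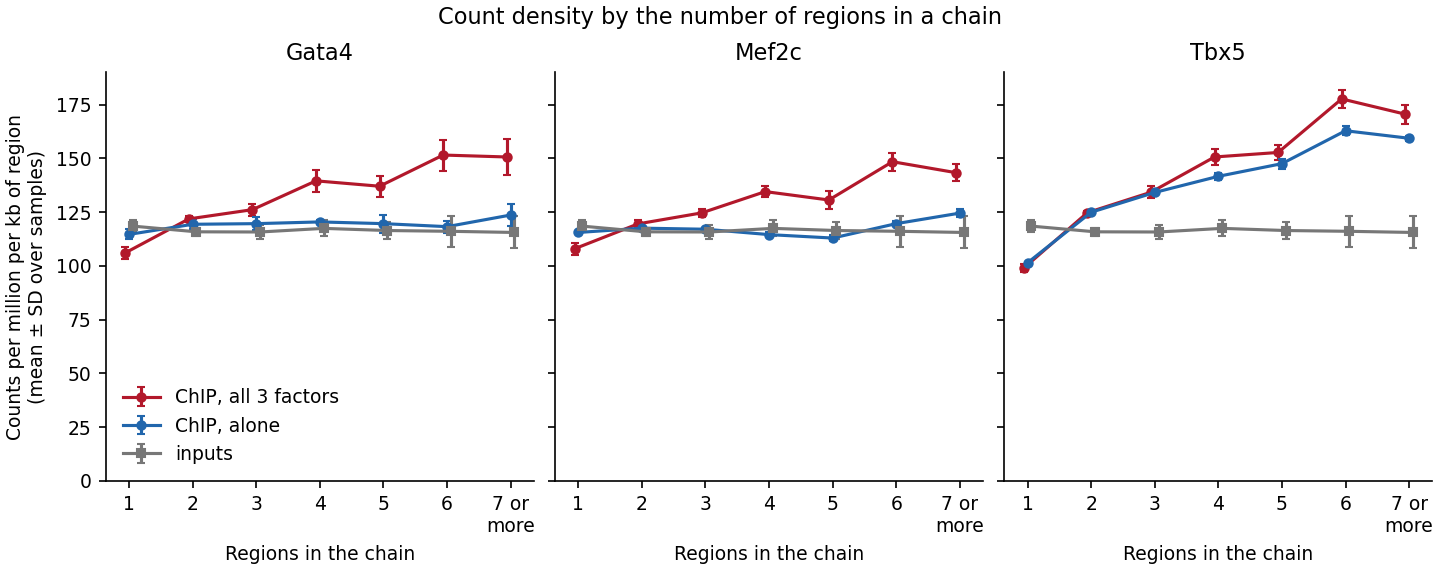
CPM per kb of region (vertical axis, mean ± SD over samples) against the number of regions in the chain (horizontal axis), for Gata4, Mef2c and Tbx5 ChIP in three-factor cells, in single-factor cells and for the inputs. The three-factor lines climb in all 3 panels, to 152 (Gata4), 148 (Mef2c) and 178 (Tbx5) CPM per kb in chains of 6, while the single-factor line climbs clearly for Tbx5.

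Width moved with 2 of these results. Among regions of at most 234 bp, the median width of the table, the log2 ratio of single-factor Gata4 was 0.21 ± 0.14 and that of single-factor Mef2c 0.24 ± 0.013. Among wider regions it was -0.01 ± 0.062 for single-factor Gata4 and -0.10 ± 0.020 for single-factor Mef2c. The inputs were near 0 in both width classes, at -0.02 ± 0.12 and 0.01 ± 0.067. Single-factor Tbx5 had 0.54 ± 0.0039 in the narrow and 0.48 ± 0.018 in the wide regions. The three-factor groups stayed positive in both, from 0.49 ± 0.12 (Mef2c) to 0.74 ± 0.11 (Tbx5) in the narrow regions and from 0.25 ± 0.034 (Mef2c) to 0.56 ± 0.038 (Tbx5) in the wide ones. This split and the one leaving out chromosome 15 were added after the data had been seen.

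Region by region, clustered regions were called above the inputs more often than the table as a whole for the 3 three-factor ChIPs and for single-factor Tbx5. Calls here are edgeR quasi-likelihood calls at 0.05 after adjustment over every region tested. Of 3615 clustered regions, 3342 passed the filter on low counts for three-factor Tbx5, of which 1666 were called higher and 643 lower, so 49.9% of those tested were higher, against 35.4% over the whole table, where 37% were lower and 72.4% called either way. For three-factor Gata4, 1138 were higher and 518 lower of 3017 tested, with 29.8% of the table higher, 28.2% lower and 57.9% called either way. For three-factor Mef2c, 1241 were higher and 713 lower of 2865 tested, with 38.2% of the table higher, 35.5% lower and 73.7% called either way. Passing the filter needs counts in at least 1 group, so these shares describe the regions tested and not all members.

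Single-factor Tbx5 was alike, with 1273 clustered regions higher and 689 lower of 2880 tested, where 33.4% of the table was higher, 34.8% lower and 68.2% called either way. The other single-factor ChIPs were near the background. Of the clustered regions tested, 24.2% were above the inputs for single-factor Gata4 (613 higher and 314 lower of 2535), against 23.7% of the table, where 12.8% were lower and 36.5% called either way. For single-factor Mef2c it was 34.3% (1127 higher and 1198 lower of 3282), against 33.6% of the table, where 39.7% were lower and 73.3% called either way. All 6 comparisons share the same inputs. Over all members without the filter, the median log2 fold change over inputs was 0.40 (Gata4), 0.17 (Mef2c) and 0.70 (Tbx5) in three-factor cells, against -0.10, -0.26 and -0.18 over the whole table in the same order of factors.

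The split of these calls depended on the scaling. TMM assumes that most regions do not differ, and scaling by library totals moved the median log2 fold change of all tested regions over inputs to -0.20 for three-factor Gata4, -0.89 for Mef2c and -0.68 for Tbx5, against 0.07, -0.11 and -0.08 with TMM. The higher share of the clustered calls was then 52.2% for three-factor Gata4 (68.7% with TMM), 38.4% for Mef2c (63.5%) and 53.3% for Tbx5 (72.2%). For the single-factor ChIPs it was 43.4% for Gata4 (66.1%), 24.3% for Mef2c (48.5%) and 44.0% for Tbx5 (64.9%). In single regions the higher share under library totals was lower still, at 26.1%, 27.1% and 24.2% for three-factor Gata4, Mef2c and Tbx5. Individual samples also counted: the percent of tested clustered regions above the inputs for three-factor Gata4 was 24.0% without inputs 1 and 3 and 20.6% without inputs 2, 4 and 5, against 37.7% with all. For single-factor Gata4 it was 7.09% and 7.42% without the same inputs and 10.2 to 11.9% without library 1, 2 or 3, against 24.2% with all. Without inputs 1 and 3, or 2, 4 and 5, lower calls outnumbered higher ones for single-factor Gata4 (85 to 65 and 83 to 69 regions).

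Between cell contexts, clustered regions leaned towards more of each factor when all 3 were present. For Gata4, 639 clustered regions were higher in three-factor than in single-factor cells and 245 were lower, of 2857 tested. That is 22.4% higher and 8.58% lower, against 16.5% and 15.2% over the whole table, where 31.7% were called either way. Single regions leaned the other way for Gata4, with 1318 higher and 1763 lower of 9411 tested. For Mef2c, 983 clustered regions were higher and 499 lower of 2619 tested, or 37.5% and 19.1%, against 31.3% and 28.8% over the table, with 60.1% called either way. For Tbx5, 554 were higher and 339 lower of 2565 tested, or 21.6% and 13.2%, against 18.8% and 14.9% over the table, with 33.7% called either way.

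**Figure D2:**
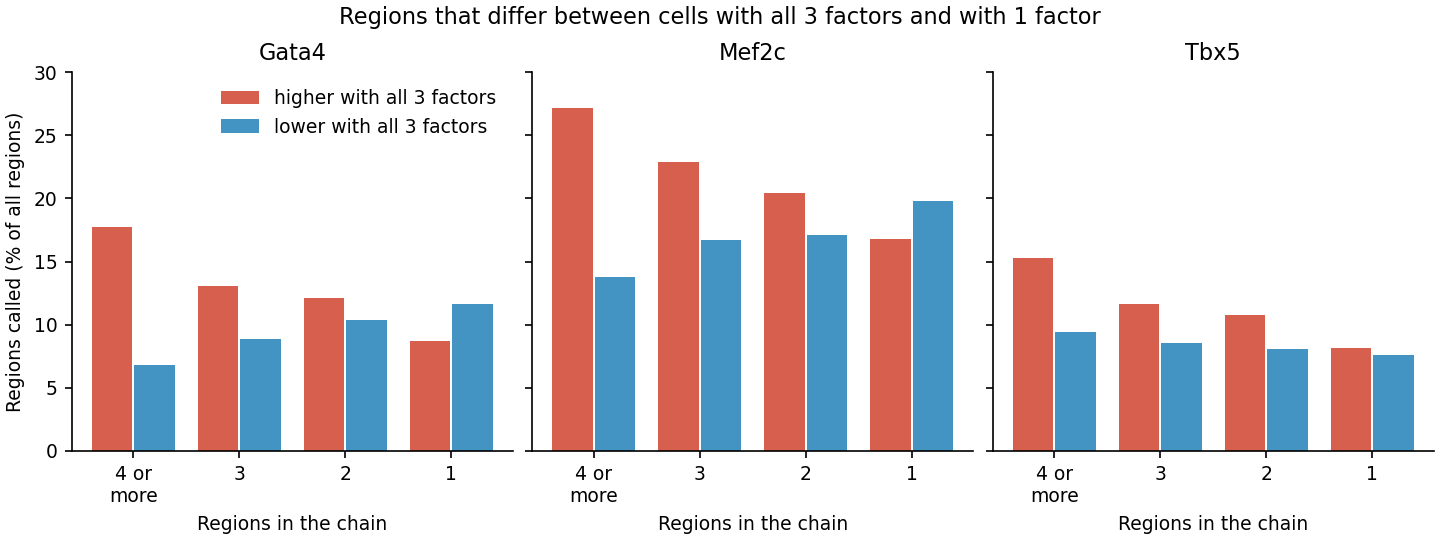
Percent of all regions called higher or lower in three-factor than in single-factor cells (vertical axis) by the number of regions in the chain (horizontal axis), for each factor. The higher share is 17.7, 27.2 and 15.3% in chains of 4 or more and 8.67, 16.8 and 8.16% in single regions for Gata4, Mef2c and Tbx5, while the lower share is 6.78, 13.8 and 9.38% in chains of 4 or more and 11.6, 19.8 and 7.56% in single regions.

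Over all 3615 members, filter or not, the median log2 difference between contexts was 0.16 for Gata4, 0.15 for Mef2c and 0.09 for Tbx5, against -0.04, -0.03 and -0.02 over the whole table. Of the calls, 72.3% were higher for Gata4 with TMM and 71.4% with library totals, 62.0% and 67.1% for Tbx5, and 66.3% and 77.6% for Mef2c, where library totals also moved the median of all tested regions from 0.15 to 0.47. Over the whole table the higher share of the calls was 52% for Gata4 with TMM and 50.9% with library totals, 55.9% and 60.6% for Tbx5, and 52.1% and 64% for Mef2c. Without the filter on low counts 51.7% of the clustered Mef2c calls were higher, against 38.7% over the whole table. Without single-factor Gata4 library 4, 1019 clustered regions were higher and 432 lower, or 49.8% of those tested against 30.9% with it. Without single-factor library 1, 2 or 3 this share was 17.5%, 16.4% and 19.2%. With three-factor Gata4 libraries 1, 3 and 6 only, 314 clustered regions were higher and 84 lower, and with libraries 2, 4 and 5 only, 411 were higher and 116 lower. For Tbx5, leaving out single-factor library 1, 2 or 3 gave 21.2, 20.9 and 19.7% called, against 34.8%.

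Within three-factor cells the factors were also set against each other. The fits between factors, here and for neighbours below, did not use the replicate number as a block, although same-numbered samples deviated together. Shares called with the block are given at the end. Tbx5 had the advantage over Gata4 in clustered regions, of which 691 were higher for Gata4 and 1133 lower, of 3354 tested (20.6% and 33.8%, against 23.4% and 26.6% of the table, 50% either way). It also had it over Mef2c, with 1016 regions higher for Mef2c and 1339 lower, of 3191 tested (31.8% and 42.0%, against 36.7% and 35.1% of the table, 71.7% either way). Gata4 against Mef2c was near even, with 1091 higher and 1145 lower of 3390 tested (32.2% and 33.8%, against 29% and 34.1% of the table, 63.1% either way). With library totals the higher share of the clustered calls was 49.7% for Gata4 against Tbx5 (37.9% with TMM) and 63.6% for Gata4 against Mef2c (48.8%), so neither direction was independent of the scaling. For Gata4 against Mef2c the whole table moved with it, from 46% of the calls higher with TMM to 60.1% with library totals. The lean towards Tbx5 over Mef2c remained, with 38.5% of the calls higher for Mef2c under library totals and 43.1% under TMM.

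Few chains had every region called above the inputs. Regions that failed the filter on low counts are taken as not called here. Of all clustered regions, 46.1% (Tbx5), 31.5% (Gata4) and 34.3% (Mef2c) were called higher in three-factor cells, against 31.1, 22.1 and 28.8% of the whole table. In single-factor cells it was 35.2, 17.0 and 31.2%, against 24.7, 15.6 and 30.3%. Tbx5 in three-factor cells was above the inputs at 2 or more regions in 486 of 766 chains and at every region in 56. Gata4 was so at 2 or more regions in 342 chains and at all in 7, and Mef2c in 380 and 12. In single-factor cells the chains with 2 or more such regions numbered 384 for Tbx5, 342 for Mef2c and 157 for Gata4. At 111 chains for Tbx5, 152 for Mef2c and 193 for Gata4, no region was called above the inputs in three-factor cells.

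The share of a chain's counts held by 1 region was highest for single-factor Mef2c. The region with the highest CPM held a median of 46.9% of a chain's Mef2c counts in three-factor cells and 55.0% in single-factor cells. In 328 of 766 chains it held over 50% for three-factor Mef2c and in 455 for single-factor Mef2c. It did so in 214 and 297 chains for Tbx5 and in 150 and 148 for Gata4, so in most chains of these factors no region held over 50%. For Gata4 the medians were 39.6% and 39.2% and for Tbx5 42.4% and 46.0%, in three-factor and single-factor cells in that order, against 31.8% in the inputs. The region with the highest CPM per kb, called the strongest from here on, was the widest of its chain in 20.8 to 28.5% of chains for the ChIP groups and in 12.4% for the inputs.

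Which region was the strongest was mostly the same in both contexts and mostly not shared between factors. Three-factor and single-factor cells had the same strongest region in 537 chains for Mef2c (70.1%), 509 for Tbx5 (66.4%) and 424 for Gata4 (55.4%). Gata4 and Tbx5 shared it in 281 chains (36.7%) in three-factor cells and in 144 (18.8%) in single-factor cells. Gata4 and Mef2c shared it in 182 chains in three-factor cells and in 123 in single-factor cells, and Mef2c and Tbx5 in 179 and 150. All 3 factors had the same strongest region in 83 chains (10.8%) in three-factor cells and in 29 (3.79%) in single-factor cells. A group shared its strongest region with the inputs in 159 to 213 chains (20.8 to 27.8%). In three-factor cells the shares of Mef2c with Gata4 (23.8%) and with Tbx5 (23.4%) lay within that range. In single-factor cells the shares between factors lay below it, at 16.1 to 19.6%. The agreement that chance alone would give was not worked out. Library depth differed between the contexts, and its part in these counts was not tested.

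Neighbouring regions tended to differ between contexts in the same direction. Within chains, where both members of a pair of neighbours were called and lay more than 700 bp apart, they had the same direction in 127 of 156 pairs for Gata4 (81.4%), 332 of 458 for Mef2c (72.5%) and 124 of 162 for Tbx5 (76.5%). Over all autosomal neighbours the share was highest at the shortest gaps and lowest beyond 50 kb for each factor. For Gata4 it was 98.4% at gaps up to 700 bp, 87.2% above that and up to 5 kb, 73.7% up to 12.5 kb, 69.0% up to 50 kb and 58.6% beyond. For Tbx5 it was 67.5% at gaps of 5 to 12.5 kb and 67.7% at gaps of 12.5 to 50 kb, so it was not lower at every step.

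Differences between factors in three-factor cells were less often shared by neighbours. The agreement that the split of calls into higher and lower alone would give differs between these comparisons and was not worked out. In chains, at gaps over 700 bp, 452 of 855 pairs (52.9%) had the same direction for Gata4 against Mef2c, 351 of 562 (62.5%) for Gata4 against Tbx5 and 545 of 974 (56.0%) for Mef2c against Tbx5. Over all autosomal neighbours these shares were 74.1 to 82.4% at gaps up to 700 bp and 50.8 to 56.4% at gaps of 5 to 12.5 kb. Of the 766 chains, those with calls in both directions numbered 62 for Gata4, 176 for Mef2c and 78 for Tbx5 between contexts, where 247, 108 and 249 chains had no region called. They numbered 427 for Gata4 against Mef2c, 298 for Gata4 against Tbx5 and 422 for Mef2c against Tbx5, where 16, 57 and 23 chains had none. More regions were called between factors than between contexts, so these counts are not compared.

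**Figure D3:**
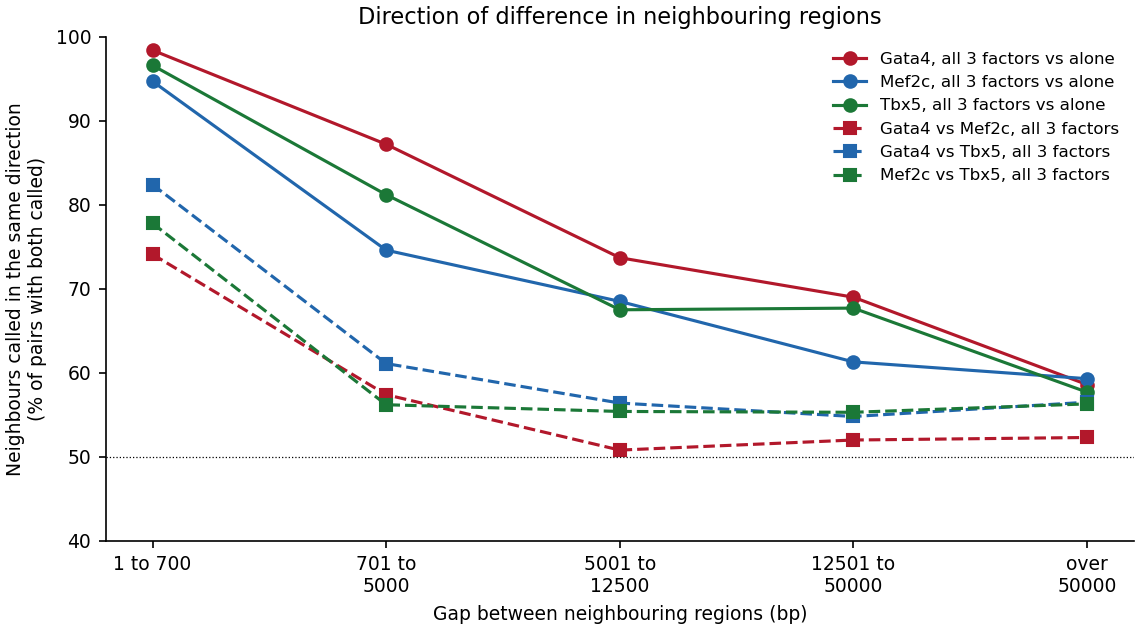
Percent of neighbouring pairs with both regions called that were called in the same direction (vertical axis), by the gap between them (horizontal axis), over all autosomal neighbours. Solid lines compare three-factor with single-factor cells for each factor and lie at 94.7 to 98.4% at the shortest gaps and at 57.7 to 59.3% beyond 50 kb. Dashed lines compare factors in three-factor cells and lie at 74.1 to 82.4% at the shortest gaps and at 50.8 to 61.1% at gaps above 700 bp.

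Counts were then summed over each chain and fitted with all chains of any size. Of the 766 chains, 179 had more Gata4 in three-factor than in single-factor cells and 37 had less, where 15% of all tested chains of any size were higher, 14.3% lower and 29.3% called either way. For Mef2c 279 were higher and 166 lower of 764 tested (30.2% and 29.4% of all tested chains, 59.5% either way), and for Tbx5 181 were higher and 99 lower of 764 (18.6% and 14.2%, 32.8% either way). The median log2 fold change of the called chains was 1.02 for higher and -0.83 for lower Gata4, 1.07 and -0.90 for Mef2c and 0.87 and -0.72 for Tbx5. Over all 766 the medians without the filter on low counts were 0.16, 0.08 and 0.09, against -0.08, 0.18 and 0.01 over all chains of any size. For Mef2c the median of the 766 thus lay below that of all chains, although more of them were called higher than lower. Most of the tested chains of any size were single regions (9411 of 15445 for Gata4), and chains of more regions sum more regions. The smallest Gata4 difference among called chains was 0.496 in chains of 4 or more and 0.603 in single regions, so the shares are not at equal sensitivity. Without single-factor Gata4 library 4, 290 chains were higher and 96 lower (50.4% called against 28.2%), and without library 1, 2 or 3 it was 18.4, 16.8 and 16.7%. With three-factor libraries 1, 3 and 6 only, 38 chains were higher (4.96% called), and with 2, 4 and 5 only, 111 were higher and 9 lower (15.7% called). For Tbx5, leaving out single-factor library 2 or 3 gave 23.8 and 23.9%, against 36.6%. Library totals in place of TMM gave 371 higher and 107 lower for Mef2c.

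Over the inputs, the summed Tbx5 counts of three-factor cells were higher in 546 of 766 chains and lower in 66 (35.1% of all tested chains were higher, 38.9% lower and 73.9% called either way). Mef2c was higher in 453 and lower in 98 (38.1%, 35.6% and 73.7% of all), and Gata4 higher in 373 and lower in 68 (29.3%, 28.6% and 58% of all). Without inputs 2, 4 and 5, Gata4 was higher in 230 and lower in 97. With library totals these counts over all inputs were 341 and 165 for Tbx5, 259 and 253 for Mef2c and 245 and 146 for Gata4. Here too most tested chains were single regions, 13302 of 19370 for Tbx5. The smallest Tbx5 difference among called chains was 0.307 in chains of 4 or more and 0.494 in single regions.

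The chain with most regions, 13 over 38986 bp at chr7:29704691-29743676, was lower for Mef2c as a whole (-0.43 ± 0.17, adjusted p = 0.0289) and was not called for Gata4 or Tbx5 between contexts. Tbx5 there had 479, 462, 481 and 522 CPM in three-factor cells, against 451, 412 and 457 CPM in single-factor cells and 288 to 356 CPM in the inputs. Gata4 had 350 to 486 CPM in three-factor cells and 330 to 462 CPM in single-factor cells, which overlap. The region with most Mef2c differed between contexts. The region chr7:29710432-29710877 held the most CPM of all 3 factors in three-factor cells, with 85.3 ± 25.4 of Gata4, 65.6 ± 20.7 of Mef2c and 81.7 ± 5.26 of Tbx5, although for Mef2c chr7:29716094-29716304 had 65.1 ± 12.1. In single-factor cells Mef2c had most at chr7:29738029-29738325, with 146 CPM, where three-factor cells had 37.3 CPM (log2 fold change -2.14, adjusted p = 2.39e-06, edgeR). Tbx5 in single-factor cells had 76.3 ± 17.9 CPM at chr7:29730458-29730704, which was not called between contexts (adjusted p = 0.137), and 68.3 ± 8.48 CPM at chr7:29710432-29710877. Gata4 in single-factor cells had 60.8 ± 16.7 CPM at that region and 62.8 ± 30.1 CPM at chr7:29716518-29716780.

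The other chains chosen for their number of regions differed in their levels of the factors. The 11 regions at chr8:124806473-124846934 were rich in Gata4, with 858 ± 83 CPM in three-factor cells (SD, n = 5) and 913 ± 290.5 CPM in single-factor cells (n = 4), against 427 ± 41 CPM in the inputs. Single-factor library 4 had 480 CPM there and the other 3 had 1018 to 1105 CPM, above the 726 to 939 CPM of the three-factor samples. Mef2c was low there, with 164 ± 47 CPM in three-factor cells and 60.9 ± 7.7 CPM in single-factor cells. At the 10 regions of chr15:25844647-25886887 all of them were above the inputs for three-factor Tbx5, and Mef2c had 545 ± 67 CPM in three-factor cells against 142 ± 24 CPM in single-factor cells (log2 fold change 1.71 ± 0.19 SE, adjusted p = 6.51e-08). At chr16:24826971-24860336, also 10 regions, Tbx5 had 260 ± 65.5 CPM in three-factor cells and 119 ± 25 CPM in single-factor cells (1.11 ± 0.23, adjusted p = 0.00175). The inputs had 307 ± 33 CPM there, and three-factor Tbx5 was not called over them (0.32 ± 0.16, adjusted p = 0.0596, edgeR). Mef2c was, with 358 ± 52 CPM in three-factor cells (0.85 ± 0.16 over inputs, adjusted p = 3.06e-05, edgeR). The 10 regions of chr5:73273652-73307751 had 410 ± 45 CPM of Gata4 in three-factor cells and 245 ± 62 CPM in single-factor cells (0.77 ± 0.20, adjusted p = 0.00764). Over the inputs there, at 368 ± 70 CPM, three-factor Gata4 was called higher by 0.36, Mef2c by 1.07 and Tbx5 by 0.98.

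The next chain is 1 of several that were called higher for all 3 factors when they were together. The 8 regions of chr8:107126665-107137304, over 10640 bp, were the first for Tbx5 and the third for Mef2c among chains that were higher in three-factor cells. Tbx5 had 605, 432, 416 and 536 CPM in three-factor cells, against 107, 102 and 132 CPM in single-factor cells (log2 fold change 2.11 ± 0.19 SE, adjusted p = 2.46e-05, edgeR). Mef2c had 420, 316, 236 and 354 CPM in three-factor cells, against 40.3, 42.4 and 43.6 CPM in single-factor cells (2.73 ± 0.23, adjusted p = 3.84e-09). Gata4 had 629, 767, 547, 472 and 716 CPM in three-factor cells, against 259, 208, 222 and 382 CPM in single-factor cells (1.26 ± 0.22, adjusted p = 0.000785). For Gata4 every three-factor sample lay above every single-factor sample. The same held for Tbx5 and Mef2c, where the rule that named this chain required it. Inputs of three-factor cells had 284 to 383 CPM and those of single-factor cells 235 to 308 CPM, so the single-factor Tbx5 and Mef2c samples held smaller shares here than any input.

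Within this chain the first pair of regions behaved unlike the rest. At chr8:107126665-107126944 and chr8:107127751-107128036 Gata4 had 67.6 and 98.8 CPM in three-factor cells and 56.6 and 84.8 CPM in single-factor cells, and neither was called between contexts for a factor tested there (the second was not tested for Mef2c). The last 6 regions carried the difference: 6 of 6 were called higher for Tbx5 and for Mef2c, and 5 of the 5 tested for Gata4. At chr8:107135129-107135377, for example, Gata4 had 103 ± 28 CPM in three-factor cells and 16.6 CPM in single-factor cells, and Tbx5 89.4 ± 25.2 and 7.40 CPM.

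**Figure D4:**
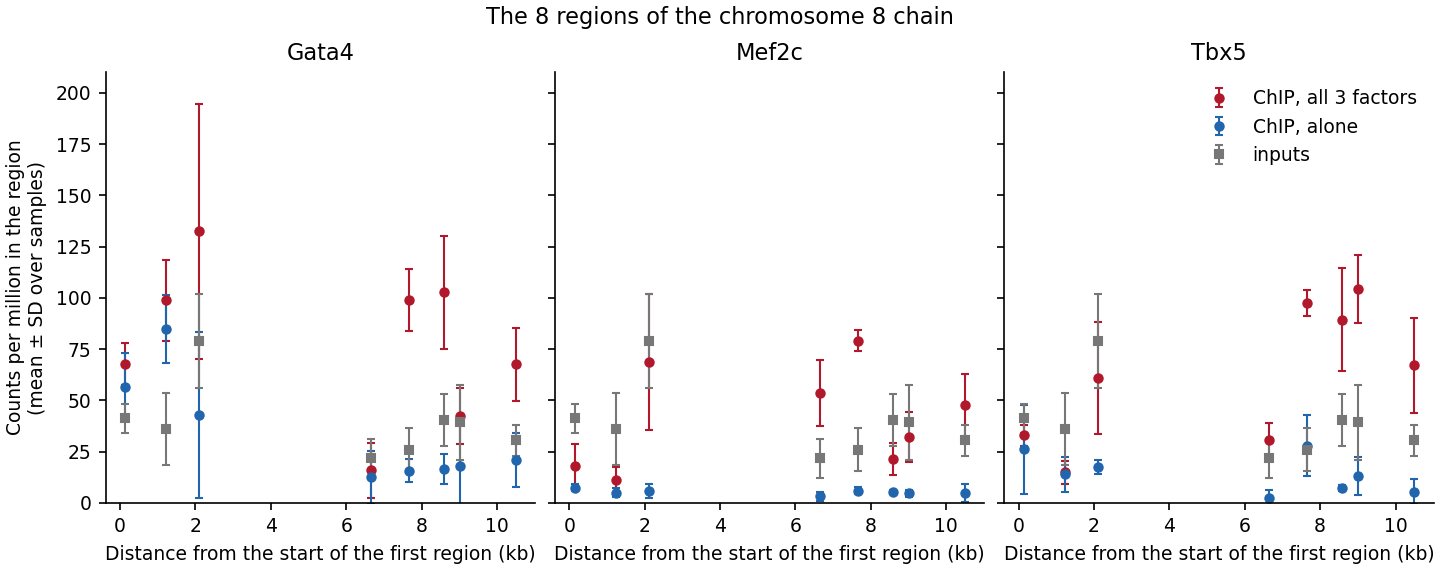
CPM in each of the 8 regions of the chain at chr8 (vertical axis, mean ± SD over samples) against the distance of the region's centre from the start of the first region in kb (horizontal axis), for Gata4, Mef2c and Tbx5 ChIP in three-factor cells, in single-factor cells and for the inputs. Gata4 is similar in both contexts at the first pair of regions (67.6 and 98.8 against 56.6 and 84.8 CPM), and from the third region on the three-factor points lie above the single-factor points for all 3 factors.

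For Gata4, 86 chains met the naming rule on the higher side: a call, a level above the median of the chains and no overlap between the samples of the contexts. The first was chr2:113876655-113897990, with 5 regions. It had 424, 341, 343, 352 and 343 CPM in three-factor cells, against 62.1, 55.8, 68.2 and 139 CPM in single-factor cells (log2 fold change 2.24 ± 0.26 SE, adjusted p = 9.47e-05, edgeR, and 2.58 without single-factor library 4, the sample at 139 CPM). Its inputs had 194 to 278 CPM in three-factor cells and 164 to 296 CPM in single-factor cells, above every single-factor Gata4 sample. Mef2c also was higher there in three-factor cells (1.32 ± 0.21, adjusted p = 1.09e-05), and so was Tbx5, by 0.52 ± 0.18 (adjusted p = 0.0375). The second, chr3:81909155-81916764, had 341 ± 40 CPM of Gata4 in three-factor cells and 81.8 ± 48.5 CPM in single-factor cells (2.17 ± 0.29, adjusted p = 0.000216, and 2.59 without single-factor library 4, at 153 CPM). The third, chr11:85613095-85632111, had all of its 6 regions called, with 691 ± 96 CPM in three-factor cells and 206 ± 57 CPM in single-factor cells (1.77 ± 0.22, adjusted p = 0.000148). The next 7 had log2 fold changes of 1.53 to 1.75.

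On the lower side 7 chains met the rule for Gata4. The first, chr9:69290132-69325204 with 7 regions, had 147, 114, 138, 168 and 130 CPM in three-factor cells, against 248, 326, 273 and 206 CPM in single-factor cells (-0.93 ± 0.21, adjusted p = 0.00345). Over the inputs, three-factor Gata4 was not called there (-0.20 ± 0.18, adjusted p = 0.334). The region chr9:69320522-69320860 carried the largest part of the difference, with 24.3 CPM in three-factor cells and 87.0 CPM in single-factor cells. The next pair, chr8:130763580-130797103 and chr3:94849524-94885484, were lower by smaller amounts (-0.81 ± 0.22 and -0.81 ± 0.21, adjusted p = 0.0101 and 0.00764). Both calls ended without single-factor library 1, at -0.61 and -0.65, and with either set of three-factor libraries alone, and the first chain's call ended with libraries 1, 3 and 6 alone, at -0.81.

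For Mef2c, 96 chains met the rule in each direction. The first on the higher side was chr11:58797502-58816492, with 6 regions, which had 266, 421, 315 and 311 CPM in three-factor cells, against 20.7, 35.1 and 28.7 CPM in single-factor cells (3.32 ± 0.26, adjusted p = 1.67e-09). Its inputs had 175 to 248 CPM. The first region, chr11:58797502-58797892, held most of the Mef2c signal, with 205 CPM in three-factor cells and 7.09 CPM in single-factor cells, and there Tbx5 had 172 and 154 CPM. The second chain was chr1:34315754-34340850, with 307 ± 40 CPM of Mef2c in three-factor cells and 33.6 ± 2.4 CPM in single-factor cells (2.97 ± 0.24, adjusted p = 2.09e-09), where Gata4 (1.47 ± 0.21, adjusted p = 0.000279) and Tbx5 (0.82 ± 0.19, adjusted p = 0.00449) were higher too. The next 7 after the third had log2 fold changes of 1.99 to 2.53.

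On the lower side for Mef2c the first chain was chr10:56660343-56677504, with 4 regions. It had 138, 128, 164 and 131 CPM in three-factor cells, against 675, 628 and 580 CPM in single-factor cells (-2.38 ± 0.17, adjusted p = 9.03e-10). Single-factor Mef2c stood above every input there, and three-factor Mef2c below all but 1: the single-factor Tbx5 input had 30.8 CPM and the other 5 had 212 to 260 CPM. The difference was shared by its first 3 regions, with log2 fold changes of -2.69, -2.53 and -2.31. The second and the third, chr3:142184503-142198983 and chr4:89038946-89052919, had 77.8 ± 12 and 76.6 ± 26 CPM in three-factor cells, against 290 ± 21 and 275 ± 42 CPM in single-factor cells (-2.13 ± 0.21 and -2.11 ± 0.24, adjusted p = 1.88e-08 and 1.25e-07).

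For Tbx5, 78 chains met the rule on the higher side and 55 on the lower. After the chromosome 8 chain, chr7:135280526-135292989 was second, with 376 ± 44 CPM in three-factor cells and 103 ± 52 CPM in single-factor cells (1.82 ± 0.24, adjusted p = 9.35e-05), and all 4 of its regions were called higher for each factor. The third, chr18:82934664-82962348, had 458 ± 77 CPM in three-factor cells and 134 ± 24 CPM in single-factor cells (1.74 ± 0.19, adjusted p = 2.85e-05). Its Mef2c counts moved within the chain: 6 of 7 regions were higher and 1 lower, and the sum had a log2 fold change of -0.01 ± 0.15.

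The named chains with less Tbx5 in three-factor cells differed at some of their regions. At chr16:52333828-52349933, the first on the lower side, Tbx5 had 131, 98.5, 157 and 149 CPM in three-factor cells, against 404, 296 and 398 CPM in single-factor cells (-1.47 ± 0.19, adjusted p = 7.62e-05). The calls were at the first pair of its 4 regions, which had 50.8 and 64.5 CPM in three-factor cells and 161 and 182 CPM in single-factor cells. Gata4 at this chain did not pass the test between contexts (-0.23 ± 0.21, adjusted p = 0.449). The second and the third, chr4:141070857-141081047 and chr10:85655360-85671890, had 242 ± 71 and 159 ± 26 CPM in three-factor cells, against 586 ± 103 and 368 ± 5.6 CPM in single-factor cells (-1.28 ± 0.19 and -1.23 ± 0.16, adjusted p = 0.000222 and 9.35e-05). Each of these 2 chains also had 2 regions called lower.

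The chains first by their three-factor signal over inputs follow. Gata4 was first at chr3:121798247-121807509, with 505, 386, 425, 514 and 404 CPM, against 110 to 139 CPM in the 6 inputs (1.97 ± 0.16, adjusted p = 9.62e-15). Tbx5 had almost the same level there in both contexts, 439 ± 63 CPM in three-factor cells and 442 ± 34 CPM in single-factor cells, whereas Gata4 had 447 ± 59 and 158 ± 40 CPM and Mef2c 172 ± 51 and 21.2 ± 3.3 CPM. The region chr3:121798927-121799423 held the most CPM of its 4 for all 3 factors in three-factor cells, with 256, 103 and 304 CPM for Gata4, Mef2c and Tbx5. A like pattern was seen at chr11:53877964-53881208, the first for Tbx5, with 479 ± 70 CPM in three-factor cells and 443 ± 29 CPM in single-factor cells, against 125 ± 7.5 CPM in the inputs. Gata4 (1.63 ± 0.30, adjusted p = 0.00108) and Mef2c (2.02 ± 0.31, adjusted p = 5.75e-06) were higher there in three-factor than in single-factor cells, and Tbx5 was not called (0.10 ± 0.15).

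The first chain for Mef2c over inputs, chr10:67619433-67631589, had 496, 726, 636 and 570 CPM, against 123 to 192 CPM in the inputs (2.62 ± 0.17, adjusted p = 1.67e-14). Single-factor cells had still more Mef2c there, 882 ± 80 CPM, so it was lower in three-factor cells (-0.76 ± 0.15, adjusted p = 0.000181). Its region chr10:67630621-67631207 held the most CPM of Gata4, Mef2c and Tbx5 alike, with 235, 360 and 120 CPM in three-factor cells and 148, 465.5 and 53.4 CPM in single-factor cells. The second for Mef2c, chr3:135179890-135202442, had 483 ± 99 CPM in three-factor cells and 687 ± 24 CPM in single-factor cells. The chain at chr11:85613095-85632111, the third for Gata4 between contexts, was the third for Tbx5 over inputs as well, with 958 ± 79 CPM in three-factor cells and 519 ± 86 CPM in single-factor cells, against 266 ± 41 CPM in the inputs (2.40 ± 0.13 over inputs, adjusted p = 1.98e-19), and all 6 of its regions were called above the inputs.

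The other chains chosen for their three-factor signal over inputs numbered 4. Tbx5 at chr8:123059542-123075184, its second, had 828 ± 133 CPM in three-factor cells and 959 ± 40 CPM in single-factor cells, against 221 ± 57 CPM in the inputs (2.42 ± 0.15 over inputs, adjusted p = 1.04e-17, edgeR). Mef2c at chr12:33285452-33300188, the third for it, had 534 ± 62.5 CPM in three-factor cells and 454 ± 49 CPM in single-factor cells, against 150 ± 41 CPM in the inputs (2.50 ± 0.18, adjusted p = 1.10e-13). At that chain Gata4 (1.89 ± 0.33, adjusted p = 0.000806) and Tbx5 (1.75 ± 0.21, adjusted p = 5.62e-05) were higher in three-factor than in single-factor cells, with Gata4 at 144 CPM in single-factor library 4 and at 35.2 to 46.2 CPM in the other 3. The second and the third for Gata4, chr10:107358447-107377795 and chr9:65389571-65398666, had 541 ± 102 and 294 ± 49 CPM in three-factor cells, against 197.5 ± 22 and 115 ± 23 CPM in the inputs (1.62 ± 0.15 and 1.59 ± 0.18, adjusted p = 2.71e-12 and 2.11e-10). Single-factor cells had 216 ± 14.5 CPM of Gata4 at the second and 276 ± 116 CPM at the third, where the contexts were not called apart (0.09 ± 0.25, adjusted p = 0.836). Single-factor library 4 had 121 CPM at the third and the other 3 had 255 to 370 CPM.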

How the data were processed

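The authors deposited raw counts, not normalised, of reads in each region for ChIP-seq and input libraries of 1 mouse fibroblast line. The submitters' processing notes name FastQC, Bowtie2 2.2.4 and featureCounts and build mm9. How reads were filtered and how regions were chosen is unstated in the labels and notes. A selection on these ChIP libraries would affect every comparison with input. It could also affect where regions lie close together, the ratio of clustered to single regions and the comparisons between contexts. The members, lists and tests were chosen with earlier results of these data known.

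Chains join regions at gaps up to 12500 bp; X and Y were left out. Libraries of a group between which a chi-square test (regions with at least 10 counts per pair, threshold 0.05) found no difference beyond sampling noise were summed. Regions, and counts summed per chain, were tested with edgeR 4.0.16 (R 4.3.3): TMM, filterByExpr (minimum count 10, minimum total 15), robust glmQLFit and glmQLFTest over the whole table, two-sided, Benjamini-Hochberg adjustment, threshold 0.05. All 6 inputs formed 1 arm, since each single-factor input is 1 library. The SE is the log2 fold change divided by the square root of F. Density ratios were compared with exact permutation tests over all orderings of the samples, and the chi-square test came from scipy 1.17.1. CPM are over the table, and means give each sample equal weight; their precision is set by depths of 97474 to 2377616 counts.

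Named chains were the 5 with most regions (ties to the shorter span) and, per comparison, the first 3 by log2 fold change among called chains whose groups did not overlap and whose average log2 CPM exceeded that of the median tested chain of 4 or more. Within three-factor cells same-numbered samples of different factors deviated together (r from 0.137 to 0.523 over 4 numbers in each pair of factors), so numbers pair them; between contexts they did not. The fits were tested on simulated data. Alternatives were DESeq2 1.42.0, library totals, no filter, single samples left out, other gaps and chain sizes, and the replicate block. No sequence or gene is given and no motif was searched, because the reference at hand is of another build.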

Additional observations from a re-analysis of the deposited data

Results flagged for a closer look

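The single-factor Tbx5 input stood apart from the other 5 inputs in its log2 ratio of counts per kb in clustered regions to single regions, at 0.16, where the others lay between -0.09 and -0.04. Its density was 126 CPM per kb in chains of 4 or more and 113 in single regions, and it is the shallowest library, with 97474 counts. It also had 30.8 CPM at chr10:56660343-56677504, where the other inputs had 212 to 260 CPM. Without it, single-factor Gata4 passed the density test against the inputs, as given above.

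At chr2:113876655-113897990, the sample made of Gata4 libraries 1 and 6 of three-factor cells, at 424 CPM, was far above the other 4, which lay at 341 to 352 CPM. At the same chain single-factor Gata4 library 4, at 139 CPM, was far above the other 3, at 55.8 to 68.2 CPM, and nearer to the inputs at 164 to 296 CPM. Chance flags about 1 group in 20 by this rule, and these are 3 flags among the density ratios and the named chains.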

How the results depend on the processing

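Of the density ratios, single-factor Mef2c over inputs reversed without the tenth of regions with the highest mean CPM (-0.092), with chains joined at 5000 bp (-0.080) and in regions above the median width (-0.11, adjusted exact p = 0.0397), and passed by medians of log2 CPM per kb (0.21) and in narrow regions (0.26). Single-factor Gata4 over inputs passed by medians (0.17) and in narrow regions (0.23), and reversed in wide ones (-0.017). With 1 sample left out its difference ran from 0.075 to 0.13. The calls of Gata4 between contexts and single-factor Tbx5 over inputs were lost with any 1 sample left out, as fewer orderings remained. The difference was then 0.32 to 0.38 for Gata4 (0.33 without libraries 1 and 6) and 0.55 to 0.60 for Tbx5 (0.565 without inputs 1 and 3, 0.561 without inputs 2, 4 and 5). The three-factor differences over inputs kept their direction and call under each alternative run.

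For the share of tested clustered regions called higher over inputs, library totals gave 24.3% for three-factor Gata4, 27.9% for three-factor Mef2c, 14.8% for single-factor Gata4 and 21.3% for single-factor Mef2c. For the share called in either direction between contexts, no filter gave 37.7% for Mef2c and 22.6% for Tbx5. Three-factor libraries 1, 3 and 6 alone gave 13.4% for Gata4 and libraries 2, 4 and 5 alone 19.6%, and for chains 4.96 and 15.7%. Leaving out 1 sample gave shares called higher over inputs of 20.6 to 41.3% for three-factor Gata4 (24.0% without inputs 1 and 3), and 7.09 to 33.1% for single-factor Gata4 (7.42% without inputs 2, 4 and 5 and 10.2% without library 2). Shares called in either direction between contexts were then 16.4 to 49.8% for Gata4 and 19.7 to 44.5% for Tbx5, and for chains 16.7 to 50.4% for Gata4 and 23.8 to 45.7% for Tbx5. The causes were not tested. Other shares of these 2 kinds stayed within 1.5 times. Chains called higher over inputs moved beyond that with library totals, to 259 for Mef2c, 341 for Tbx5 and 245 for Gata4, and for Gata4 without inputs 2, 4 and 5, to 230.

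With the replicate number as a block, shares called in either direction were 81.7% for Mef2c against Tbx5, 64.3% for Gata4 against Tbx5 and 70.5% for Gata4 against Mef2c in three-factor cells, where numbers pair the samples. Between contexts, where they do not, they were 23.4% (Gata4), 49.6% (Mef2c) and 32.3% (Tbx5). It moved no share beyond 1.5 times. The motif comparison was not run. Depth, at 97474 counts in the shallowest input, limits what can be called per region.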
